A study of Homo sapiens with 3 samples.

Results

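The p53 target genes described here are 29 genes reported in other cells as targets of the transcription factor p53 or as its close partners, measured in HT29 cells after forced expression of the microRNA miR-146a. The members were given as a list, chosen with earlier results of these data known. A probe set was taken for a member when the platform annotation paired it with that gene alone. By this rule 27 of the 29 members had a probe set, 75 probe sets in all, out of 19775 genes that the array measures in this way. Expression of BTG2 and FDXR was not analysed here. HT29 is an established human colorectal adenocarcinoma line grown in serum-containing medium. The miR-146a cells were transduced with a lentiviral miR-146a expression construct (2 arrays, replicates 1 and 2), and the vector cells with an empty lentiviral vector (1 array). The labels state neither the promoter of the construct nor whether a pool or a clone was used. All 3 arrays therefore come from virus-transduced cells, and no array of untransduced HT29 was used here. The comparison asks how the transcript levels of these genes differ between miR-146a and vector cells.

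p53 is stabilised when DNA is damaged or growth signals are abnormal, and it then switches on genes for cell cycle arrest, DNA repair and cell death, together with genes such as MDM2 that feed back to limit it. HT29 is known to carry a missense mutant p53 in which binding to these genes is impaired, and how far other factors drive the members in this line is not measured here. The mutation cannot be read from expression arrays, and the p53 gene itself was not analysed here. Many members are also known to respond to other factors, among them forkhead factors (CCNG2, BTG1), the integrated stress response (SESN2, GDF15) and mitogen or cytokine signals (PLK2, PLK3, GADD45B).

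The microRNA expressed from the construct is shown first, since it is the agent that separates the 2 groups. The RefSeq record (GRCh38.p14) gives these mature strands, 5′ to 3′, with the seed (bases 2 to 8) in capitals:
miR-146a-5p: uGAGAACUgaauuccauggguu
miR-146a-3p: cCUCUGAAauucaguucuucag
The 5p strand lies at chr5:160485372-160485393 and the 3p strand at chr5:160485408-160485429, both on the plus strand. No array value used here reads the mature microRNA, so its level in the cells is not given.

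Array values are log2 signals after RMA, a method that corrects background, normalizes arrays to each other and summarises the probes of each set. A probe set was kept when its mean over both groups was above 5.13, the median of all probe sets. This kept 49 of the 75 member probe sets and 26 of the 27 members. EDA2R, a receptor of the tumour necrosis factor family, was the member left out, with 4.77 and 4.53 in miR-146a cells against 4.92 in vector cells. The kept probe sets nearest the filter belonged to PPM1D (mean 5.21) and POLH (5.32), and the nearest left out belonged to MDM2 (5.12) and TNFRSF10C (5.09). The median log2 signal of an array was 5.12 to 5.14. Over all 27306 kept probe sets the 2 miR-146a arrays were 0.07 apart at the median and within 0.27 for 95% of probe sets. Nothing in the labels tells whether the replicates were separate cultures, so each p-value reflects array-to-array spread that could be technical, and the single vector array has no spread of its own. Of the 12 colon epithelial markers examined 11 were above the filter. Of the markers of other cells with a probe set, 2 of 6 for fibroblasts (COL1A1, DCN), 2 of 4 for leukocytes (CD14, LYZ) and 1 of 4 for endothelium (PECAM1) were above it. Differences of the markers from the vector ran from -0.54 to 0.17 on the log2 scale, the lowest in the epithelial list. Control probes at the 5′ end of ACTB and GAPDH, which lose signal when RNA is shortened, differed by -0.32 to -0.18 from the vector, while those at the 3′ end differed by -0.03 to 0.05. Their part in the differences below was not tested.

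The p53 target genes differed from the vector in both directions. With the strongest probe set of each gene, 12 of 26 members (46.2%) lay above the vector value on both miR-146a arrays and 10 (38.5%) lay below it on both. Over all 12444 genes above the filter these shares were 40.2% and 28.8%. Counting the 49 probe sets separately, 16 (32.7%) were higher and 24 (49.0%) lower on both, against 36.0% and 33.1% of all kept probe sets. Of the 24 lower on both, CCNG2 gave 5, GADD45B 3 and PERP 3. The median log2 difference was 0.03, against 0.01 over all genes. AEN, PLK2 and GDF15 (3 members, 11.5%) exceeded the vector by 0.32 or more (log2) on each miR-146a array, as did 3.79% of all genes. GADD45B and TP53INP1 (2 members, 7.69%) were lower by at least 0.32 in both, where 1.95% of all genes were. CCNG2, the member with the lowest single probe set, is not among these 5, because its strongest probe set was lower by less than 0.32 in replicate 2. With replicate 2 left out, which makes this a rule on 1 array, the count of 5 was 8. At 1.5-fold in both arrays it was 0. Shares over all genes were not computed for these 2 rules, so neither count is read as a result about the members.

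**Figure D1:**
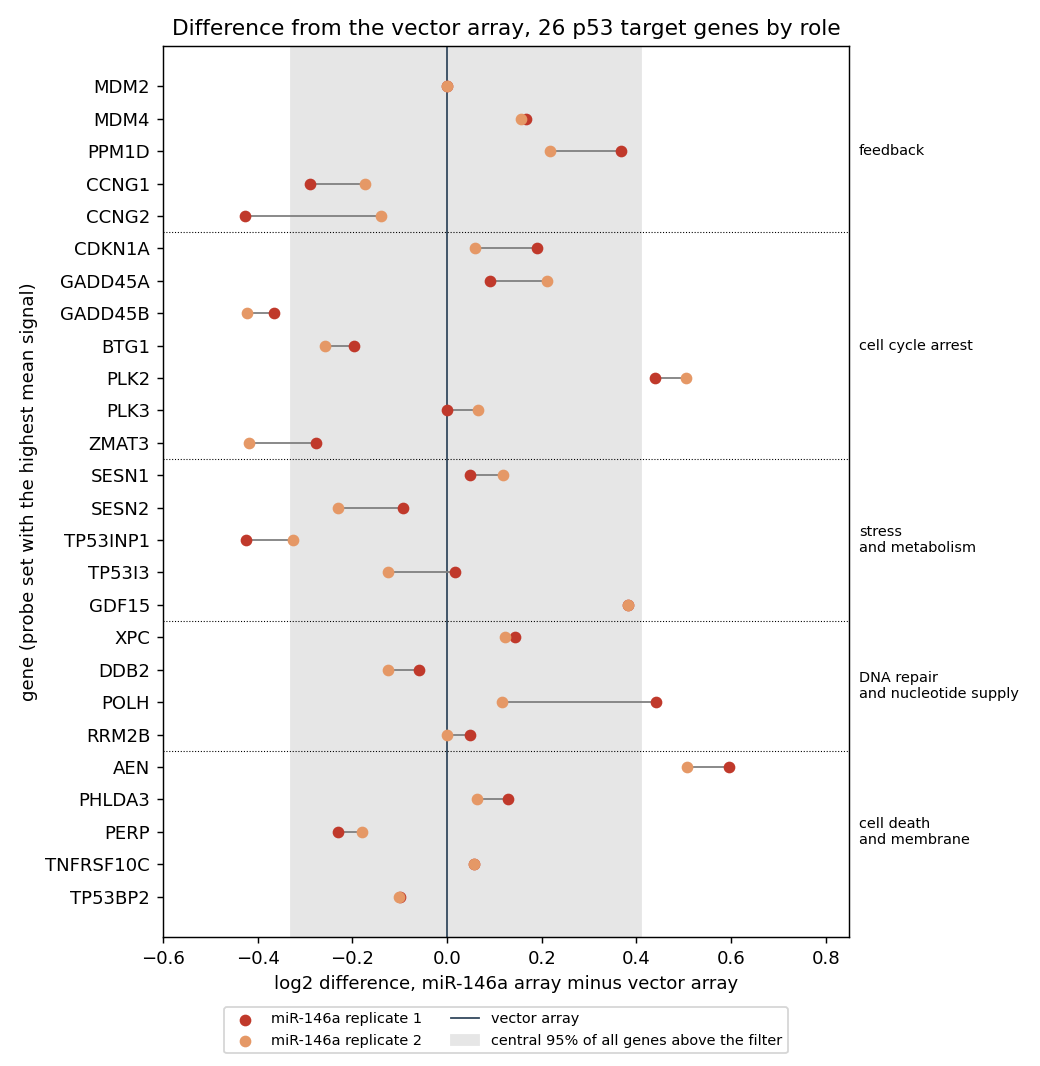
Log2 difference of each miR-146a array from the vector array (x axis) for the 26 p53 target genes above the filter, each by its strongest probe set and ordered by role (y axis), with replicate 1 in red, replicate 2 in orange, the vector array as the line at 0 and the central 95% of all genes, -0.33 to 0.41, as the grey band. AEN and PLK2 lie right of the band in both arrays, GADD45B lies left of it in both, and most other members lie inside it.

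The differences of the members were spread more widely than those of genes at large. The lower and upper quartiles were -0.19 and 0.15 for the members, against -0.07 and 0.12 for all genes. A difference beyond 0.2 in either direction was seen in 12 of the 26 members (46.2%) and in 20.7% of all genes. These shares are descriptions, and no test was made of the spread. The members were chosen with earlier results of these data known, and how far that choice shaped the spread was not tested.

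**Figure D2:**
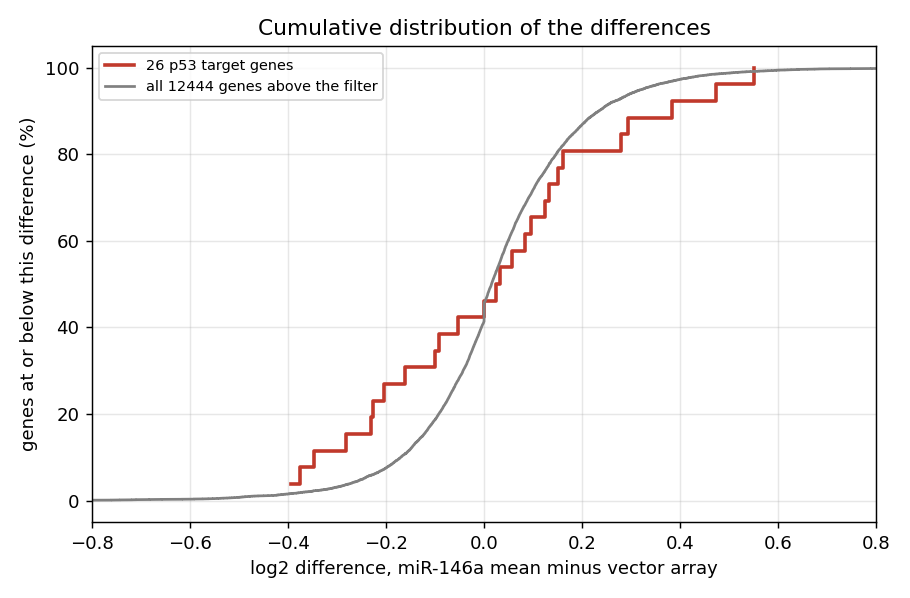
Cumulative share of genes (y axis, percent) at or below each log2 difference, miR-146a mean minus vector (x axis), for the 26 p53 target genes in red and for all 12444 genes above the filter in grey. The red line lies mostly above the grey at negative differences down to -0.39, the lowest of the members. At positive differences it lies mostly below the grey. The quartiles of -0.19 and 0.15 against -0.07 and 0.12 show both.

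By the main test, limma with Benjamini-Hochberg adjustment over all 27306 probe sets, no member probe set was called and none of all probe sets was either (0%), the smallest adjusted p being 0.131. Before adjustment, 8 of 49 member probe sets (16.3%) were higher and 6 (12.2%) lower at p under 0.05, against 12.4% and 10.9% of all probe sets. The test has 1 residual degree of freedom, and 12.5% of kept probe sets had exactly equal values on both miR-146a arrays, 7 of the 49 member probe sets among them, which gives these very small errors. A second limma fit took its variance prior from probe sets whose 2 miR-146a values differ, a setting known from earlier results of these data. It called 3 member probe sets higher (6.12%), of AEN, PLK2 and GDF15, where 4.14% of all probe sets were called higher. It called 8 lower (16.3%), where 4.78% of all were, and these 8 belong to 5 genes, with 3 probe sets of CCNG2, 2 of GADD45B and 1 each of TP53INP1, MDM4 and ZMAT3. Probe sets of 1 gene share its transcript and are not independent. Adjusted p-values given below as from the second fit are these, and they take the vector array to vary as little as the miR-146a arrays do.

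Among the genes that restrain p53 and the cyclins of the list, CCNG2 was lower in the second fit, CCNG1 was called in neither fit and the strongest MDM2 probe set lay at the vector level. CCNG2 encodes cyclin G2, an unconventional cyclin that slows the cell cycle. Its probe set 202770_s_at had log2 signals of 6.92 and 6.84 in miR-146a cells against 7.65 in vector cells, a difference of -0.77 with a 95% interval of -0.99 to -0.56 in the second fit (adjusted p = 2.21e-04). Its probe set 228081_at read 7.23 and 7.26 in miR-146a cells against 7.78 in vector cells, a difference of -0.54 (adjusted p = 0.00308 in the second fit). Both miR-146a arrays were below the vector array in all 5 CCNG2 probe sets above the filter.

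The size of the CCNG2 difference depended on the probe set. The weakest, 211559_s_at, read 4.99 and 4.72 in miR-146a cells against 5.90 in vector cells, a difference of -1.04 (adjusted p = 6.42e-05 in the second fit), but its mean signal of 5.38 was close to the filter. The strongest, 202769_at, read 9.69 and 9.98 in miR-146a cells against 10.12 in vector cells, a difference of -0.28 (adjusted p = 0.16 in the second fit). The mean over the 5 was -0.56. CCNG1, cyclin G1, which recruits a phosphatase to MDM2, had 11.17 and 11.28 in miR-146a cells against 11.45 in vector cells, with both miR-146a values lower and an adjusted p of 0.198 in the second fit.

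MDM2, the ubiquitin ligase that degrades p53, read 7.98 on all 3 arrays in its strongest probe set, with a difference of 0.00 and a 95% interval of -0.21 to 0.21 in the second fit. These 3 values are exactly equal, as they are in MDM4 probe set 241876_at, and what such ties reflect was not tested. The other MDM2 probe sets above the filter differed by 0.05 and 0.14, each higher on both miR-146a arrays. Most MDM2 probe sets lay below the filter, with mean signals from 2.59 to 5.12. MDM4, a relative of MDM2 that blocks p53's activation domain, gave opposite answers by probe set. Its strongest, 236814_at, read 9.84 and 9.83 in miR-146a cells against 9.67 in vector cells. Its probe set 225742_at read 6.74 and 6.62 in miR-146a cells against 7.02 in vector cells (difference -0.35, adjusted p = 0.0444 in the second fit). The other MDM4 probe sets differed by 0.00 and 0.02. PPM1D, the phosphatase Wip1 that switches off damage signalling, had 6.87 and 6.72 in miR-146a cells against 6.50 in vector cells (difference 0.29, adjusted p = 0.098 in the second fit), and its other probe set, near the filter, differed by -0.18.

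**Figure D3:**
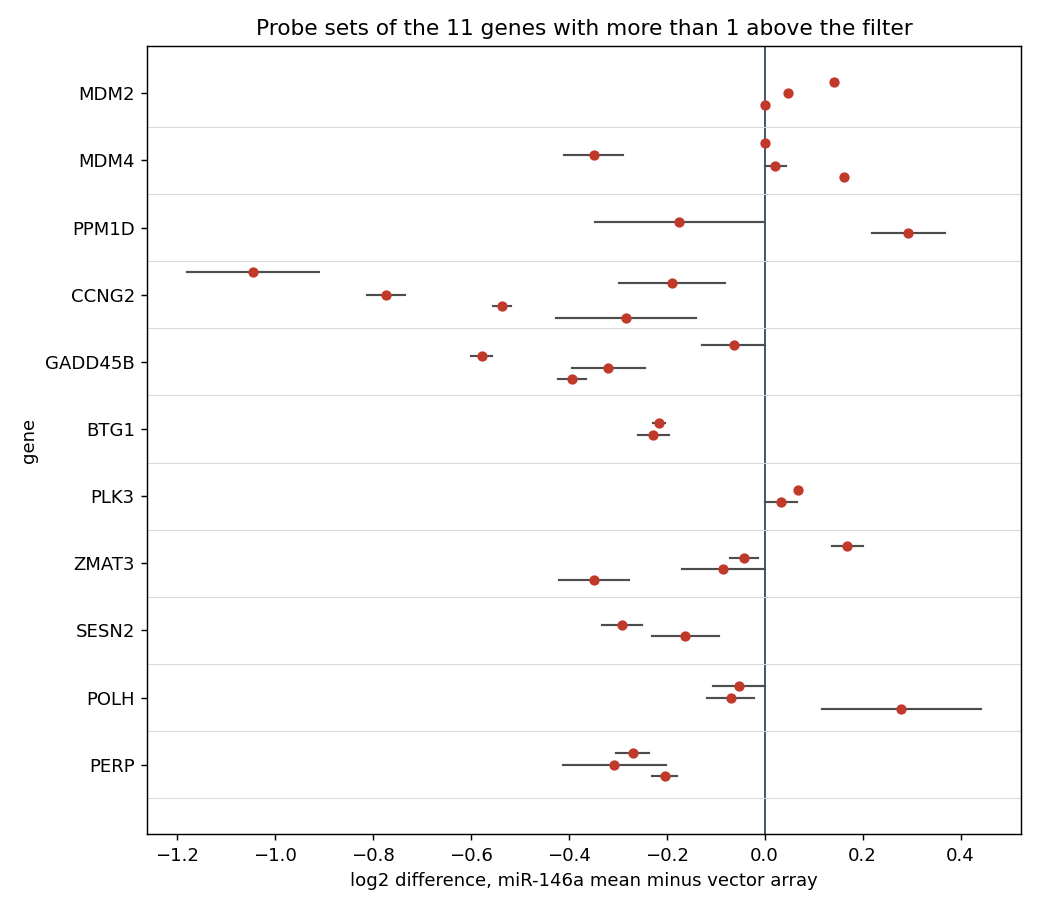
Log2 difference from the vector array (x axis) for each probe set above the filter of the 11 p53 target genes with more than 1 (y axis); each dot is the mean of the miR-146a arrays for 1 probe set and each line joins the values of replicates 1 and 2. All 5 probe sets of CCNG2 and all 3 of PERP lie left of 0 in both arrays, whereas those of MDM4, PPM1D, ZMAT3 and POLH lie on both sides.

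Of the cell cycle arrest genes, PLK2 was higher in the second fit, GADD45B and 1 probe set of ZMAT3 were lower, and CDKN1A, GADD45A, PLK3 and BTG1 were called in neither fit. CDKN1A, the cyclin-dependent kinase inhibitor p21 and the best known p53 target, had log2 signals of 8.81 and 8.68 in miR-146a cells against 8.62 in vector cells. The difference of 0.12 had a 95% interval of -0.10 to 0.34 in the second fit (adjusted p = 0.578), so a change within this interval was not resolved. PLK2, a polo-like kinase of the stress and early growth response, had 11.87 and 11.94 in miR-146a cells against 11.43 in vector cells, a 1.39-fold difference (log2 difference 0.47, 95% interval 0.26 to 0.69, adjusted p = 0.00724 in the second fit). PLK3, its relative, read 6.91 and 6.98 in miR-146a cells against 6.91 in vector cells.

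The GADD45 proteins bind stress kinases and the replication clamp. GADD45B read 7.60 and 7.56 in miR-146a cells against 8.16 in vector cells by probe set 209305_s_at, which was 1.49-fold lower (log2 difference -0.58, adjusted p = 0.00188 in the second fit). Its strongest probe set, 207574_s_at, read 9.53 and 9.48 in miR-146a cells against 9.90 in vector cells (difference -0.39, adjusted p = 0.0208 in the second fit). Both miR-146a arrays were below the vector in 3 of its 4 probe sets, and the remaining one differed by -0.06. GADD45A, the p53-responsive relative, was higher in both, with 10.12 and 10.24 in miR-146a cells against 10.03 in vector cells (difference 0.15, adjusted p = 0.464 in the second fit). Whether these 2 paralogs differ in response was not tested.

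BTG1, an antiproliferative adaptor of mRNA deadenylation, had both miR-146a arrays below the vector in both of its probe sets above the filter. The stronger one read 10.45 and 10.39 in miR-146a cells against 10.65 in vector cells, and the differences were -0.23 and -0.22 (adjusted p = 0.194 and adjusted p = 0.218 in the second fit). ZMAT3, an RNA-binding protein that regulates splicing and stability of p53-linked transcripts, had differences from -0.35 to 0.17 over its 4 probe sets. The lowest, 219628_at, read 6.91 and 6.77 in miR-146a cells against 7.19 in vector cells (adjusted p = 0.0476 in the second fit), while 228315_at read 6.71 and 6.64 in miR-146a cells against 6.51 in vector cells and so was higher in both.

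**Figure D4:**
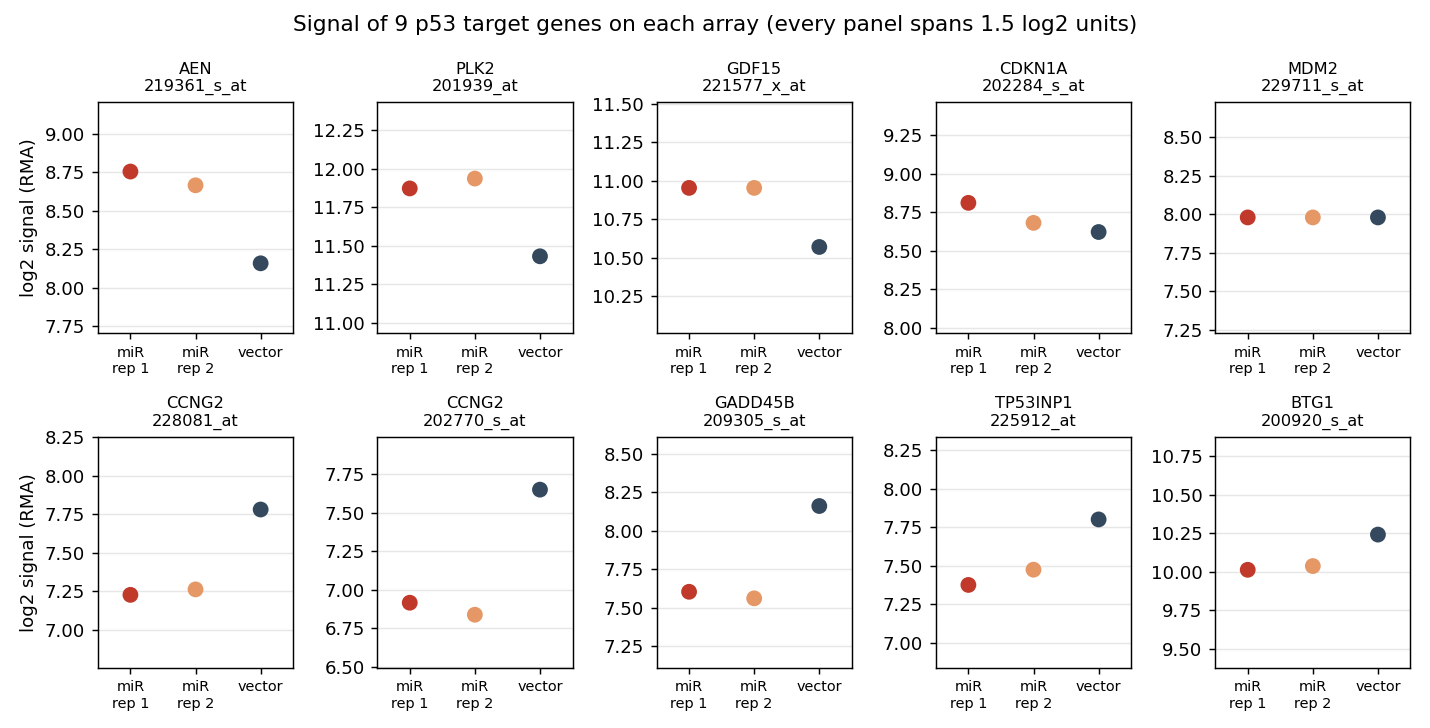
Log2 RMA signal (y axis) on each array (x axis, miR-146a replicates 1 and 2, then vector) for 10 probe sets of 9 p53 target genes, every panel spanning 1.5 log2 units. The miR-146a arrays lie above the vector array for AEN, PLK2, GDF15 and CDKN1A and below it for CCNG2, GADD45B, TP53INP1 and BTG1. MDM2 reads 7.98 on all 3 arrays. The panels of CCNG2, GADD45B and BTG1 do not show the strongest probe sets of these genes, which differed by -0.28, -0.39 and -0.23.

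Of the stress and metabolic targets, GDF15 was higher and TP53INP1 lower in the second fit. GDF15, a secreted stress cytokine, had 10.95 on both miR-146a arrays against 10.57 with the vector, a 1.30-fold difference (log2 difference 0.38, adjusted p = 0.0232 in the second fit). The 2 miR-146a values are exactly equal. TP53INP1, a nuclear and autophagy protein that promotes cell death, had 7.38 and 7.47 in miR-146a cells against 7.80 in vector cells, and was 1.30-fold lower (log2 difference -0.38, 95% interval -0.59 to -0.16, adjusted p = 0.0288 in the second fit). The main fit gave TP53INP1 a 95% interval of -0.77 to 0.02. The sestrins restrain mTORC1 under stress. SESN2 was lower in both arrays by both probe sets, at 7.21 and 7.13 in miR-146a cells against 7.46 in vector cells by 223196_s_at (difference -0.29, adjusted p = 0.0892 in the second fit) and with a difference of -0.16 by the other. SESN1 had 8.23 and 8.30 in miR-146a cells against 8.18 in vector cells. TP53I3, a quinone oxidoreductase, had 7.09 and 6.95 in miR-146a cells against 7.07 in vector cells, so the groups overlapped.

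No probe set of the DNA repair and nucleotide supply genes was called in either fit. XPC, the damage sensor of global nucleotide excision repair, had 7.85 and 7.83 in miR-146a cells against 7.71 in vector cells (difference 0.13, adjusted p = 0.52 in the second fit). DDB2, which hands ultraviolet lesions to XPC, had 8.33 and 8.26 in miR-146a cells against 8.38 in vector cells (difference -0.09, adjusted p = 0.714 in the second fit). These partners in 1 pathway thus differed from the vector in opposite directions, each by less than 0.27, the gap that 95% of probe sets kept between the miR-146a arrays. RRM2B, the p53-inducible ribonucleotide reductase subunit, had 7.96 and 7.91 in miR-146a cells against 7.91 in vector cells. POLH, a polymerase that copies past ultraviolet lesions, had a strongest probe set 0.32 apart between the miR-146a arrays, at 6.09 and 5.77, with 5.65 in the vector array (difference 0.28, adjusted p = 0.187 in the second fit). Its 2 other probe sets above the filter differed by -0.05 and -0.07.

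Among the genes of cell death and the cell membrane, AEN was higher in the second fit and no other was called. AEN, an apoptosis-enhancing nuclease, had 8.75 and 8.67 in miR-146a cells against 8.16 in vector cells, a 1.46-fold difference and the highest of the members' strongest probe sets (log2 difference 0.55, 95% interval 0.34 to 0.77, adjusted p = 0.00284 in the second fit). PERP, a desmosome-associated membrane protein of epithelia, had both miR-146a arrays below the vector in all 3 probe sets above the filter, with differences from -0.31 to -0.20. Its strongest read 12.43 and 12.48 in miR-146a cells against 12.66 in vector cells, and no PERP probe set was called in the second fit (lowest adjusted p = 0.0981). PHLDA3, an inhibitor of AKT, had 7.27 and 7.21 in miR-146a cells against 7.15 in vector cells. A second PHLDA3 probe set, just outside the filter at a mean of 5.06, read 5.43 on both miR-146a arrays against 4.70 with the vector. TNFRSF10C, a decoy receptor for TRAIL with close paralogs, had 5.41 on both miR-146a arrays against 5.35 with the vector. TP53BP2, which binds p53 and directs it to cell death genes, had 8.55 on both miR-146a arrays against 8.65 with the vector (difference -0.10, adjusted p = 0.667 in the second fit).

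Promoter windows are shown for the 2 members with probe sets called lower more than once, CCNG2 and GADD45B, and for the 2 with the highest differences, PLK2 and AEN. Each runs 5′ to 3′ along the gene's strand from 250 bases before to 50 after the RefSeq start (GRCh38.p14), and capitals mark matches on either strand to the p53 half-site consensus (10 letters) or to CACGTG, the E-box that reads the same on both strands (6 letters). The windows are chr4:77156957-77157256 (plus strand) for CCNG2, chr19:2475877-2476176 (plus) for GADD45B, chr5:58460037-58460336 (minus) for PLK2 and chr15:88621090-88621389 (plus) for AEN.
CCNG2: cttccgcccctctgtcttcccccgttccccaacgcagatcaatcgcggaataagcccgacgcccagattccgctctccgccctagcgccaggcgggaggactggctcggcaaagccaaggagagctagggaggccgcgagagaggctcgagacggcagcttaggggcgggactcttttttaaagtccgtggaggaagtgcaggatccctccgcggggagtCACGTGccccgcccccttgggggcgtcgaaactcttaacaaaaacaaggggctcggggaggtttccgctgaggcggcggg
GADD45B: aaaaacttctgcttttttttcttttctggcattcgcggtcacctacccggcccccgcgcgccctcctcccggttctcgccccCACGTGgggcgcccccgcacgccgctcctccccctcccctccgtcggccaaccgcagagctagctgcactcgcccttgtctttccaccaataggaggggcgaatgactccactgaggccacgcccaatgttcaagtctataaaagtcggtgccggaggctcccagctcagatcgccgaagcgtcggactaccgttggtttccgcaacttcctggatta
PLK2: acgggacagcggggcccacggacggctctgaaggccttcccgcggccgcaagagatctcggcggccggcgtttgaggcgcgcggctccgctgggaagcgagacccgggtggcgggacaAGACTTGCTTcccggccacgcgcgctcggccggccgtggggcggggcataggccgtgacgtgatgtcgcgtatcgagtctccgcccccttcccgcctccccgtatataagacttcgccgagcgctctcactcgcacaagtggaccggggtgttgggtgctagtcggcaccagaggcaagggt
AEN: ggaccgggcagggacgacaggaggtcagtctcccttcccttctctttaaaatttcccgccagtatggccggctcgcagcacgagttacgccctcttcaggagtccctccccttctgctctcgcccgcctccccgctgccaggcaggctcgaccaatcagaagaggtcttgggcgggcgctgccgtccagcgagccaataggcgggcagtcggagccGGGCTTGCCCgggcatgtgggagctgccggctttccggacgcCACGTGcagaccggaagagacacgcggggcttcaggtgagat
The PLK2 window holds a p53 half-site match at bases 119 to 128 and the AEN window holds one at bases 217 to 226, besides CACGTG at bases 259 to 264. The CCNG2 and GADD45B windows hold CACGTG, at bases 221 to 226 and at bases 83 to 88, and no half-site match.

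The RefSeq table held windows for 24 of the 29 members, 34 windows in all because some genes have several starts, whose windows may overlap. A p53 half-site match was found in 5 member windows, 1 each of AEN, DDB2, FDXR, PLK2 and SESN1, and in 6.63% of the 35116 windows of all genes. CACGTG was found in 5 member windows, of AEN, CCNG2, EDA2R and GADD45B, against 7.26% of all. The forkhead core GTAAACA was found in 3, of BTG1, GDF15 and PERP (3.42% of all), and the AP-1 core TGANTCA in 5, of EDA2R, MDM2 and PERP (7.71% of all). The well-known p53 sites of CDKN1A lie farther upstream, and a match is a description of letters only.

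Other reported p53 targets, a list of 41 genes that are not members, also differed in both directions. Of the 35 above the filter, 14 (40.0%) were higher and 14 (40.0%) lower in both miR-146a arrays, against 40.2% and 28.8% of all genes, and the median log2 difference was -0.01 (0.01 over all genes). No probe set of this list was called by limma, where 14 of 64 (21.9%) had an unadjusted p under 0.05, against 23.4% of all probe sets. The second fit called 3 higher and 3 lower (4.69% each), against 4.14% and 4.78% of all. LIF, an interleukin-6 family cytokine, had 7.83 and 7.77 in miR-146a cells against 7.35 in vector cells. TNFRSF10A, a death receptor for TRAIL, had 8.66 and 8.52 in miR-146a cells against 8.23 in vector cells, and both genes were higher (differences 0.45 and 0.36). TNFRSF10D, a decoy receptor for TRAIL, had 7.58 and 7.60 in miR-146a cells against 8.02 in vector cells. BCL6, a transcriptional repressor, had 8.96 and 8.79 in miR-146a cells against 9.35 in vector cells, and both of these were lower (differences -0.43 and -0.48). Over 3 probe sets each, TNFRSF10A differed by 0.11 to 0.36 and BCL6 by -0.48 to -0.21. The remaining higher call was 1 of 3 probe sets of BID, at 0.45 (adjusted p = 0.0101 in the second fit, its probe sets ranging down to 0.13).

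The p53 family and its regulators, 33 genes of which 28 were measured above the filter, had calls in 4 genes in the second fit. Of these 28, 15 (53.6%) were higher and 5 (17.9%) lower in both arrays, against 40.2% and 28.8% of all genes, none was 0.32 or more apart on both arrays with its strongest probe set, and the median difference was 0.04. No probe set of the list was called by limma, where 12 of 67 (17.9%) had an unadjusted p under 0.05, against 23.4% of all probe sets. The second fit called 1 higher (1.49%) and 3 lower (4.48%), against 4.14% and 4.78% of all. PPP1R13B, a relative of TP53BP2 that steers p53 to cell death genes, had 6.69 and 6.75 in miR-146a cells against 6.38 in vector cells (difference 0.34, adjusted p = 0.0441 in the second fit). CDKN2A, which encodes the MDM2 inhibitor ARF and the kinase inhibitor p16, had 10.59 and 10.61 in miR-146a cells against 10.44 in vector cells, with its 3 probe sets between -0.04 and 0.27. ATM, the kinase that activates p53 after DNA breaks, had differences from -0.50 to -0.12 over its 3 probe sets, and the lowest read 6.69 and 6.29 in miR-146a cells against 6.99 in vector cells (adjusted p = 0.023 in the second fit). The other calls, looked up after the values were seen, were 1 of 3 probe sets of PRKDC, a kinase of DNA break repair, at -0.37 (adjusted p = 0.0277 in the second fit, its probe sets ranging up to 0.28), and 1 of 2 of RCHY1, a ubiquitin ligase for p53, at -0.35 (adjusted p = 0.0476 in the second fit, the other at -0.03). SETD7, a methyltransferase that acts on p53, had 9.43 and 9.44 in miR-146a cells against 9.57 in vector cells.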

How the data were processed

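RNA of transduced HT29 cells was hybridised as biotinylated cRNA to Affymetrix arrays, per the labels' protocols, with 2 miR-146a arrays and 1 vector array. The authors' deposited values are log2 signals of 54675 probe sets made with RMA, per the submitters' processing notes; the version of RMA is not stated in these sources. Gene names came from the platform annotation, updated by Entrez number through RefSeq: 41091 of 54613 non-control probe sets had 1 gene, 1801 several and 11721 none.

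The members, lists and tests were chosen with earlier results of these data known. Differences are miR-146a mean minus vector, folds are 2 to that power, and every member is named. Of the other lists up to 4 genes are named by the smaller of the 2 array differences. BID, PRKDC and RCHY1 are named besides, for their calls in the second fit. Per gene, the probe set with the highest mean was used for counts. The main test was limma 3.58.1 (lmFit, eBayes; R 4.3.3), two-sided, threshold 0.05. The second fit replaced the prior (0.558 degrees of freedom, then 15.1). Alternatives covered probe set choice, filter, normalization, prior, fold threshold and each replicate. Probe sets annotated to several genes, 2 of TNFRSF10C among them, were left out. Figures were drawn with matplotlib 3.10.9. The number of arrays limits the precision.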

Additional observations from a re-analysis of the deposited data

How the results depend on the processing

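No member probe set was called by limma in the main setting, with 1 probe set per gene, the mean of a gene's probe sets, no filter, a filter at percentile 70, cyclic loess, quantile normalization, an intensity trend or a robust prior. With the prior from unequal replicates 11 were called. That fit could not be compared without a replicate, since 1 array against 1 leaves no residual degree of freedom. The count of members higher in both arrays (12) ran from 9 to 14 over all settings that keep 1 value per gene. The count lower in both (10) ran from 10 to 12, and it was 24 when the 49 probe sets were counted separately, a setting added after seeing the data. The count past 0.32 on the log2 scale in both (5) was 9 with probe sets counted separately, 0 at 1.5-fold and 0 at 2-fold, and 6 to 8 when either miR-146a replicate was left out. It was 8 without miR-146a replicate 2. With a replicate left out, each of these counts needs 1 array only, so it can only stay or rise. Apart from the direction counts over separate probe sets, given above, shares over all genes were not computed for these counts under the alternatives. The number of members kept also changes with the filter, so no range here is read as a result about the members. The median difference of the members (0.03) was -0.03 with a gene's probe sets averaged, -0.06 with probe sets counted separately, and 0.03 without either replicate. The median of the other p53 targets (-0.01) was 0.03 with probe sets averaged. For single genes the direction reversed for MDM4 (-0.03) and POLH (-0.09) with probe sets averaged, and for TP53I3, at -0.05, when a replicate was left out (-0.12 to 0.02, 0.02 without replicate 2). The cause was not tested. With 1 vector array, no setting measures how much separately transduced vector cultures differ. No paired analysis was possible, because there is 1 vector array for the 2 miR-146a arrays.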
